A study of Mus musculus with 20 samples.

Results

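The libraries described here ask whether mouse cells that carry a doxycycline-inducible Clock/Bmal1 construct already differ from a control line before any doxycycline (dox) is added. The construct is placed under tetO, the operator to which a dox-dependent transactivator binds. The members are the 8 untreated libraries of tetO clones and the 4 libraries of the control line, 12 of the 20 libraries in the series, with 6 in each of the 2 cell types. They were chosen by their labelled genotype and treatment, with earlier results of these data known. In embryonic stem cells (ESC, line KY1.1) the untreated clones were 1 and 7 with tetO-Clock/Bmal1 and 5 and 6 with tetO-Clock/Bmal1DN, where DN is not spelled out in the labels. In induced presomitic mesoderm (iPSM) colonies, made from E14TG2a ESC that carry a luciferase reporter under the Hes7 promoter, they were clones 12 and 20 with tetO-Clock/Bmal1 and clones 7 and 19 with tetO-Clock/Bmal1DN. The control line of each cell type gave 1 library with dox and 1 without, and both entered as its reference. The labels call this line control, and nothing in them says which parts of the inducible system it carries. Dox, where it was given, was 500 ng/mL for 6 h in ESC and 1000 ng/mL for 2 h in iPSM. Each numbered line is 1 clone with 1 library per state, so the spread over clones includes clonal differences, and the spread of the control is that of 1 line in 2 states.

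CLOCK and BMAL1 (the product of Arntl) form the activating pair of the mammalian circadian clock. The pair binds E-box elements and switches on Per and Cry genes, whose products inhibit it, the Nr1d1 and Nr1d2 genes, whose products repress Arntl, and output genes such as Dbp, Tef and Ciart. Mouse ESC and early embryonic cells are known to lack an overt circadian rhythm although they express several of these genes. In presomitic mesoderm another oscillator, the segmentation clock, runs on Notch, Wnt and Fgf signalling, with Hes7 as its core repressor. Inducible constructs of this kind can leak, that is, be transcribed at a low level with no inducer. The reads of a transgene made from Clock or Arntl coding sequence are counted with the reads of the endogenous gene, so the 2 sources cannot be told apart here. Counts were taken over the whole gene body, so intron reads of the endogenous gene can enter the levels and their ratios to the control. The share of such reads was not tested.

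The E-box is best seen in the promoters of the direct targets, which are shown because their transcripts were read as the output of the pair. RefSeq promoters (GRCm38.p6) run from 250 bases before to 50 bases after a transcription start, and 15 of the 20 genes in the list of E-box targets had one whose start lay within 1000 bases of the start used by the authors. The letters CACGTG, which read the same on both strands so that 1 search covers both, were in 6 of those 15 promoters (40.0%), namely those of Ciart, Cipc, Per1, Cry1, Tef and Bhlhe41, and in 7.15% of all 32851 promoters of that length. Ciart, the circadian repressor also called CHRONO, held 3 copies. Cipc, an inhibitor of CLOCK, held 1. The promoter of Nr1d2, which encodes the nuclear receptor REV-ERB beta, held none in this window, nor did those of Nr1d1, Dbp, Clock and Arntl. The 3 sequences are given 5′ to 3′ on the strand of the gene with CACGTG in capitals.
Ciart, chr3:95882179-95882478, minus strand: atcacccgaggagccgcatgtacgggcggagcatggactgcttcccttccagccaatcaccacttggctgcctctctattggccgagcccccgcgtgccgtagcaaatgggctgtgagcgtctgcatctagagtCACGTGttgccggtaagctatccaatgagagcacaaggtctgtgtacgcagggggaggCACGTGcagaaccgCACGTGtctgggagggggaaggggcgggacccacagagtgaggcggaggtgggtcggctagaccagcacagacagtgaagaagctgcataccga
Cipc, chr12:86947093-86947392, plus strand: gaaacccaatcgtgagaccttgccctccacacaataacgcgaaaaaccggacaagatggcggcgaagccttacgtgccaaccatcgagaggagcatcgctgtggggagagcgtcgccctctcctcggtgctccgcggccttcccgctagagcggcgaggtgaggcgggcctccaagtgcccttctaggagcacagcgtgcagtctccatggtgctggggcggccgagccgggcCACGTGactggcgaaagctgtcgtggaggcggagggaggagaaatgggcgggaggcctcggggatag
Nr1d2, chr14:18239057-18239356, minus strand: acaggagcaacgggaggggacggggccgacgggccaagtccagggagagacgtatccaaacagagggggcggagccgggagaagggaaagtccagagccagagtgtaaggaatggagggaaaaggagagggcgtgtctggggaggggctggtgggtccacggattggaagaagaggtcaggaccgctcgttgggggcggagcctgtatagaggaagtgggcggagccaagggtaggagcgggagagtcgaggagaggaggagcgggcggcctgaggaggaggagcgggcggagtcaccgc

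Depth was similar in the groups. Total counts per library were 42723738 to 57299360 in ESC clones and 44744252 and 49405244 in the ESC control line, and 38411740 to 47664485 in iPSM clones and 38184055 and 41933466 in the iPSM control line. The untreated control libraries stood apart in both cell types. In iPSM that library had reads over 69.4% of all features, against 50.2% to 54.0% in the other iPSM libraries, and its score of -168.3 set it off along the first principal component (42.7% of the variance). In ESC it had reads over 43.8% of features, against 49.3% to 53% in the others, with a score of -104.2 along the first principal component (28.1% of the variance). For that reason the fitted iPSM differences and list medians are also given against the dox-treated control library alone. ESC list medians are given so only for the E-box targets and the mitochondrial transcripts, and most other ESC results rest on both control libraries. Levels below are CPM, counts scaled to a library of 1000000 with TMM factors over all 10 libraries of a cell type, and differences are log2 fold changes of clones over control with their standard error (SE) from edgeR's quasi-likelihood test, with Benjamini-Hochberg adjusted p-values over all genes tested.

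Over the whole transcriptome the clones gave no call. At an adjusted p of 0.05 edgeR called 0 of 20398 genes higher and 0 lower in ESC clones (0.0% in each direction), with a smallest adjusted p of 0.347, and 0 of 20829 genes in either direction in iPSM clones (0.0%), with a smallest adjusted p of 0.276. At an unadjusted p under 0.05 there were 2184 genes in ESC, 1492 higher (7.31%) and 692 lower (3.39%), and 1582 in iPSM, 515 higher (2.47%) and 1067 lower (5.12%). DESeq2 called 133 genes higher (0.652%) and 22 lower (0.108%) in ESC, and 50 higher (0.24%) and 143 lower (0.687%) in iPSM. Against the dox-treated iPSM control library alone, edgeR called 0 of 21454 genes, with 795 at an unadjusted p under 0.05 (2.22% higher and 1.49% lower). A further description used below is whether all 4 clones lay above or below both control libraries. Of all genes tested, 12.8% lay above in every ESC clone and 9.48% below, and 8.16% lay above in every iPSM clone and 7.32% below.

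The transgenes themselves were read first. In ESC, all 4 untreated clones had more Clock and more Arntl reads than both control libraries, by at most 2.06 times the control mean, and neither difference passed the adjusted test. In iPSM colonies Arntl was 2.05 to 3.79 times the control mean in the 4 clones, while Clock was level with the control. The separation of the 2 genes in iPSM came without dox, and dox itself brought both genes far above these levels in 7 of the 8 clones, with clone 19 as the exception for Arntl.

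Clock (mm10 chr5:76209868-76304792, minus strand) had 39.6 and 59.2 CPM in ESC Clock/Bmal1 clones 1 and 7 and 35.7 and 39.7 CPM in Clock/Bmal1DN clones 5 and 6, against 29.3 CPM in the untreated and 28.0 CPM in the dox-treated control library. The groups did not overlap, and clone 7 stood highest, at 2.06 times the control mean of 28.7 ± 0.921 CPM (SD, n = 2), where the other clones were at 1.24 to 1.38 times. The fitted log2 difference was 0.59 ± 0.204 (SE; edgeR adjusted p = 0.447, unadjusted 0.0185). For the Clock/Bmal1 clones alone it was 0.77 ± 0.203 (edgeR adjusted p = 0.737) and for the Clock/Bmal1DN clones alone 0.37 ± 0.203 (edgeR adjusted p = 0.686).

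Arntl (mm10 chr7:113207465-113314126, plus strand) had 45.4 and 48.2 CPM in ESC clones 1 and 7 and 54.6 and 44.4 CPM in clones 5 and 6, against 38.9 CPM in the untreated and 37.7 CPM in the dox-treated control library. Every clone lay above the control, by 1.16 to 1.43 times its mean, and the highest was clone 5, not the clone with the most Clock. The log2 difference was 0.32 ± 0.13 (SE; edgeR adjusted p = 0.453, unadjusted 0.0381). DESeq2 called neither gene in ESC, with adjusted p-values of 0.186 for Clock and 0.331 for Arntl.

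The dox-treated libraries of the same clones give the scale. With dox, Clock reached 700, 575, 325 and 1500 CPM and Arntl 2200, 4140, 1620 and 4070 CPM in ESC clones 1, 7, 5 and 6. The excess of untreated over control Clock was thus 0.748% to 5.59% of the excess after dox, and that of Arntl 0.151% to 1.03%. Clone 6 had the most Clock with dox and the smallest share without it.

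In iPSM, Arntl had 56.5 and 77.4 CPM in Clock/Bmal1 clones 12 and 20 and 41.8 and 66.0 CPM in Clock/Bmal1DN clones 7 and 19, against 20.8 CPM in the untreated and 20.0 CPM in the dox-treated control library. The 4 clones lay well clear of the control, whose libraries differed by less than 1 CPM, and clones of the 2 constructs were interleaved. The log2 difference was 1.55 ± 0.241 (SE), with an unadjusted p of 0.000176 and an edgeR adjusted p of 0.303. Against the dox-treated control alone it was 1.59 ± 0.329 (edgeR adjusted p = 0.92), so its size did not rest on the untreated control library. Leaving out the dox-treated control library or clone 20 instead brought the edgeR adjusted p to 0.0235 and 0.0422. DESeq2 called it, at an adjusted p of 1.19e-06, and over all settings tried the adjusted p ran between 1.13e-13 and 0.92.

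Clock in iPSM had 99.4 and 104 CPM in clones 12 and 20 and 112 and 107 CPM in clones 7 and 19, against 110 CPM in the untreated and 108 CPM in the dox-treated control library. The groups overlapped, with a log2 difference of -0.06 ± 0.114 (SE; edgeR adjusted p = 0.995), and -0.03 ± 0.162 against the dox-treated control alone (edgeR adjusted p = 0.981). The control level of Clock in iPSM, 109 ± 1.74 CPM (SD, n = 2), was above that in ESC.

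Dox in iPSM brought Clock to 1750, 2470, 1020 and 1060 CPM and Arntl to 3220, 4700, 888 and 153 CPM in clones 12, 20, 7 and 19. The untreated excess of Arntl was 1.13%, 1.22% and 2.47% of the excess after dox in clones 12, 20 and 7, and 34.4% in clone 19, whose Arntl reached only 153 CPM with dox although its Clock reached 1060 CPM. In the fit of both cell types together, the Arntl difference was larger in iPSM than in ESC by 1.24 ± 0.274 on the log2 scale and the Clock difference smaller by 0.64 ± 0.243 (SE), with edgeR adjusted p-values of 0.193 and 0.294, so neither passed over the 22958 genes tested. Without the untreated iPSM control library these differences were 1.24 ± 0.333 (edgeR adjusted p = 0.581) and -0.65 ± 0.284 (edgeR adjusted p = 0.584). The 2 cell types also differ in parent line, clone numbers and control, which cannot be told apart from the cell type.

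**Figure D1:**
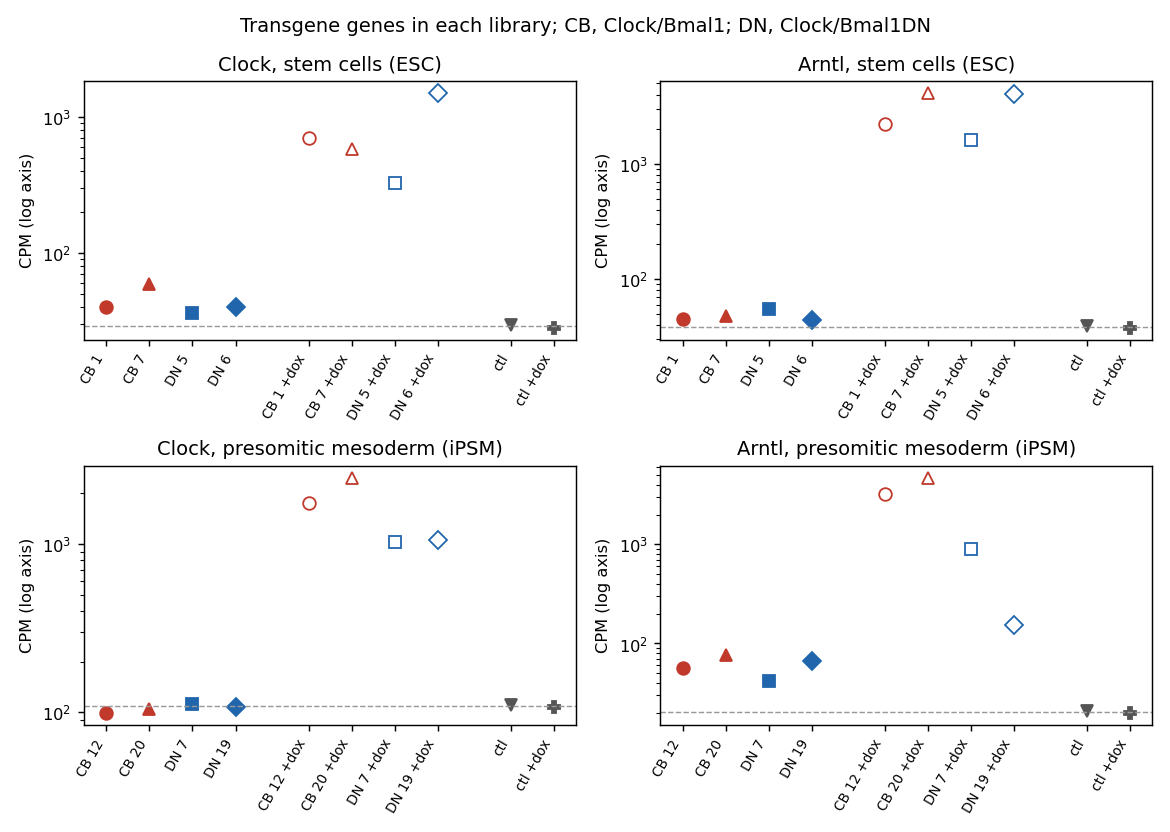
Clock and Arntl in each library, as CPM on a log axis, with untreated clones (filled symbols), their dox-treated libraries (open symbols) and the control line (grey, mean dashed) for ESC and iPSM. The untreated clones sit just above the control for both genes in ESC and at 41.8 to 77.4 CPM against 20.0 and 20.8 CPM for Arntl in iPSM, while the dox-treated libraries lie far higher except for Arntl in iPSM clone 19.

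The plot of Clock and Arntl by library shows these levels on 1 scale. Each clone lies nearer on the log axis to the control than to its own dox-treated library for both genes, with the exception of Arntl in iPSM clone 19, where 66.0 CPM without dox lies nearer to 153 CPM with dox.

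The 20 direct E-box targets, read as the output of the pair, were all expressed above the filter in both cell types and stayed close to the control as a group. In ESC their median log2 difference was 0.01, 2 of 20 lay above the control in every clone and 1 below (against 12.8% and 9.48% of all genes), and in iPSM the median was 0.04, with 4 above and 0 below (against 8.16% and 7.32%). The medians over all genes tested were -0.00 in ESC and 0.01 in iPSM. Against the dox-treated ESC control alone the ESC median of the targets was 0.16. None of the 20 passed the edgeR or the DESeq2 test in either cell type, and with no filter on low counts edgeR called 1, Nr1d2 in iPSM. Split by construct, the ESC median was -0.10 in Clock/Bmal1 and 0.04 in Clock/Bmal1DN clones.

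Nr1d2 was the target that lay above the control in every clone of both cell types. It had 44.5 and 67.4 CPM in ESC clones 1 and 7 and 45.1 and 53.4 CPM in clones 5 and 6, against 32.9 and 38.4 CPM in the untreated and dox-treated control. In iPSM it had 88.3 and 58.5 CPM in clones 12 and 20 and 82.3 and 67.1 CPM in clones 7 and 19, against 39.9 and 48.6 CPM in the untreated and dox-treated control. The log2 difference was 0.54 ± 0.184 in ESC (SE; edgeR adjusted p = 0.447) and 0.73 ± 0.192 in iPSM (edgeR adjusted p = 0.463), and 0.60 against the dox-treated iPSM control alone (edgeR adjusted p = 0.92).

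The level of Nr1d2 did not separate the constructs. In ESC the highest clone, 7, was also the highest for Clock, but in iPSM Nr1d2 was highest in clone 12 and lowest in clone 20, which had the most Arntl. With dox Nr1d2 reached 199 and 206 CPM in ESC clones 1 and 7, against 53 and 45.8 CPM in clones 5 and 6, and in iPSM 190 and 180 CPM in clones 12 and 20, against 82.8 and 74.8 CPM in clones 7 and 19. Without dox the log2 difference of Nr1d2 from the iPSM control was 0.71 ± 0.233 in Clock/Bmal1 clones (SE; edgeR adjusted p = 0.696) and 0.74 ± 0.233 in Clock/Bmal1DN clones (edgeR adjusted p = 1.0), and the difference between the constructs was not tested.

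Ciart, whose promoter holds 3 E-boxes, went opposite ways in the 2 cell types. In ESC it had 4.24 and 3.79 CPM in clones 1 and 7 and 4.95 and 3.83 CPM in clones 5 and 6, against 5.06 and 6.17 CPM in the control, the 1 target below the control in every ESC clone. In iPSM it had 3.24 and 2.77 CPM in clones 12 and 20 and 2.71 and 2.63 CPM in clones 7 and 19, against 1.46 and 1.85 CPM in the control. The log2 differences were -0.43 in ESC (edgeR unadjusted p = 0.0712) and 0.76 ± 0.249 in iPSM (SE; edgeR adjusted p = 0.512), or 0.61 against the dox-treated iPSM control alone. The difference between the cell types, 1.20 ± 0.325 (SE), had an edgeR adjusted p of 0.198, and was 1.01 ± 0.382 without the untreated iPSM control library (edgeR adjusted p = 0.581). With dox Ciart reached 74.9 and 119 CPM in ESC clones 1 and 7 and 59.7 and 86.4 CPM in iPSM clones 12 and 20, so the untreated levels lie within 2 CPM of the control on a scale on which the induced clones lie above 59 CPM.

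Nr1d1, which encodes REV-ERB alpha, had 2.16, 1.29, 1.33 and 1.14 CPM in iPSM clones 12, 20, 7 and 19, against 0.973 and 0.927 CPM in the control (log2 difference 0.62 ± 0.357 SE, edgeR unadjusted p = 0.118, and 0.67 against the dox-treated control alone). Cipc had 34.8, 35.9, 36.0 and 38.0 CPM, against 33.2 and 34.7 CPM. Both lay above the control in every iPSM clone, but clone 12 exceeded the higher control library for Cipc by less than the gap between the control libraries. Tef, a PAR bZIP output factor, lay above the control mean in iPSM with 59.9, 42.9, 66.3 and 69.2 CPM in clones 12, 20, 7 and 19, against 38.9 and 45.8 CPM, but clone 20 lay within the control range. Tsc22d3, a gene best known as a glucocorticoid target, was with Nr1d2 the other target above the control in every ESC clone, with 3.80, 7.82, 3.69 and 12.3 CPM in clones 1, 7, 5 and 6, against 2.49 and 3.34 CPM (log2 difference 1.22, edgeR unadjusted p = 0.0355).

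The period genes and Dbp, the readouts most often used for CLOCK/BMAL1 activity, did not stand above the control in all 4 clones of either cell type. Dbp had 4.93, 5.45, 2.76 and 4.21 CPM in iPSM clones 12, 20, 7 and 19, against 3.45 and 4.56 CPM, and 3.86, 3.78, 7.74 and 5.75 CPM in ESC clones 1, 7, 5 and 6, against 6.38 and 7.57 CPM. Per1 had 7.7, 5.02, 7.81 and 7.31 CPM in the iPSM clones, against 7.78 and 7.39 CPM. Per2 had 3.42 and 1.70 CPM in iPSM Clock/Bmal1 clones 12 and 20 and 9.29 and 7.46 CPM in Clock/Bmal1DN clones 7 and 19, against 3.55 and 2.56 CPM in the control, so that both Clock/Bmal1DN clones lay above every other library of this comparison. Cry1 lay lower in Clock/Bmal1 than in Clock/Bmal1DN clones, with 28.9 and 19.6 against 49.9 and 35.6 CPM in ESC, where the control had 48.4 and 48.0 CPM, and 30.9 and 28.8 against 45.2 and 50.8 CPM in iPSM, where the control had 42.4 and 41.1 CPM. No call was made for these genes in either construct.

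Summed over the 20 targets, the ESC clones 1, 7, 5 and 6 had 480, 460, 521 and 482 CPM, against 450 and 493 CPM in the control, which overlapped. The iPSM clones 12, 20, 7 and 19 had 575, 557, 593 and 605 CPM, against 501 CPM in the untreated and 560 CPM in the dox-treated control, so clone 20 lay below the dox-treated library. Against that library alone, 6 of the 20 targets lay above in every iPSM clone and 0 below, with a median log2 difference of 0.13, where 20.5% and 17.8% of all genes did so. A single library is easier to exceed than a pair, as the larger shares of all genes show.

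**Figure D2:**
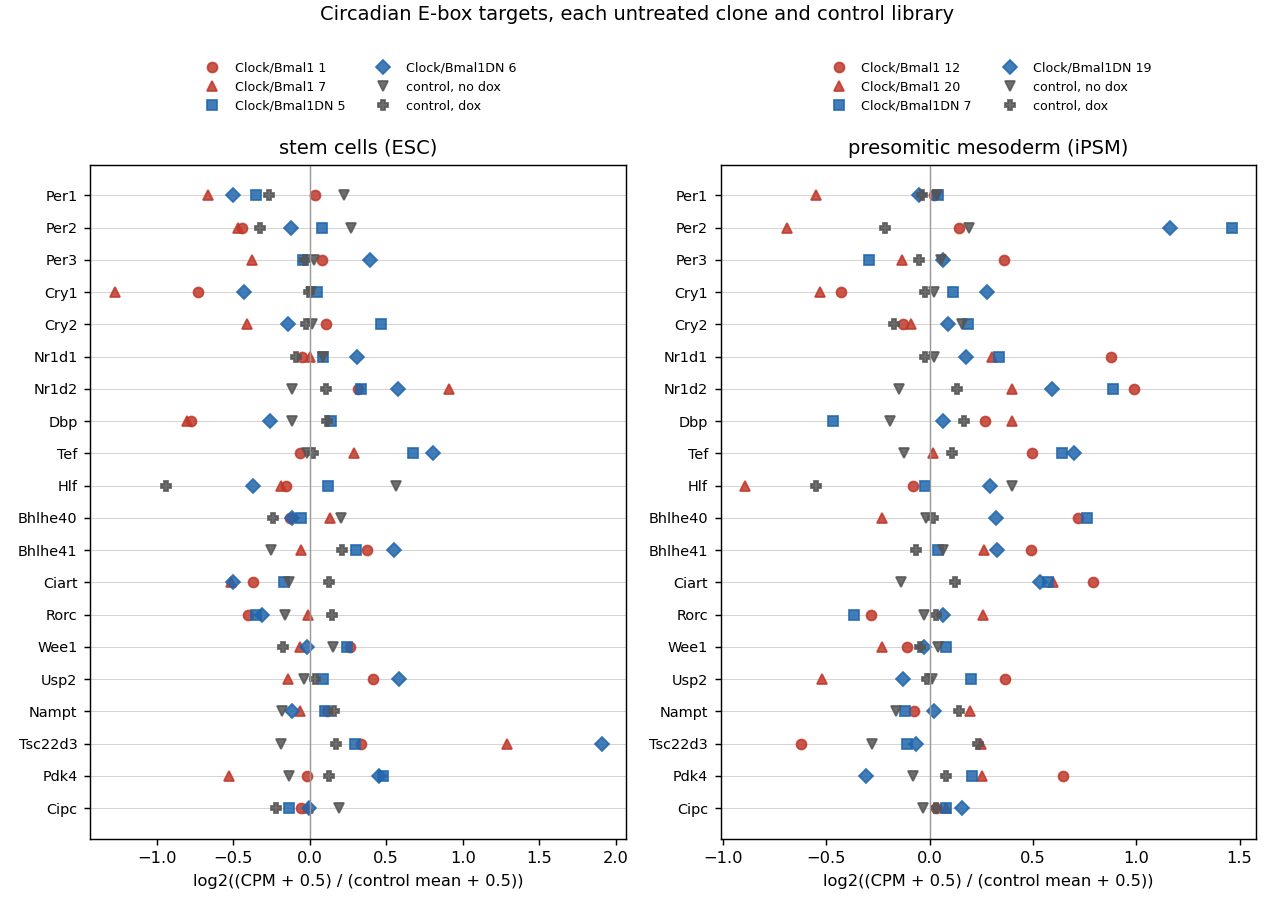
Log2 ratio to the control mean (CPM + 0.5 in both) for the 20 E-box targets, with 1 point per untreated clone and control library (grey), in ESC and iPSM. Most genes have clones on both sides of 0, and Nr1d2 has all 4 clones above 0 in both cell types.

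The plot of the 20 targets by clone shows that the spread among clones exceeds the mean difference for most of them. Ciart lies left of 0 in the 4 ESC clones and right of it in the 4 iPSM clones.

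Among 19 other clock components (kinases, ligases, the ROR receptors and partners of the core loop), 2 lay above the control in every ESC clone (Nfil3 and Sfpq) and 1 below (Timeless), with a median log2 difference of 0.07, and 0 lay above and 1 below (Sfpq) in iPSM, with a median of -0.01 (0.10 against the dox-treated control alone). The genes around Per1 and Hes7, which are neighbours on chromosome 11, held 1 of 15 above and 1 below in ESC, and 0 of 14 above and 1 below, Hes7 itself, in iPSM, where the median was 0.06 (-0.02 against the dox-treated control alone). Of all genes tested, 12.8% lay above and 9.48% below in ESC, and 8.16% above and 7.32% below in iPSM.

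A list of genes that Clock/Bmal1 induced with dox had been chosen on libraries that include these clones and the same control, and is no independent evidence. Without dox it did not stand above the control. Its summed level in ESC was 34.3, 35.7, 36.3 and 29.3 CPM in clones 1, 7, 5 and 6, against 36.3 and 36.1 CPM in the control. In iPSM it was 31.1, 47.4, 40.2 and 45.7 CPM in clones 12, 20, 7 and 19, against 56.6 and 64.8 CPM in the control, lower in every clone. With dox the sums were 434 and 362 CPM in ESC clones 1 and 7 and 275 and 452 CPM in iPSM clones 12 and 20. Of its members 0 of 7 lay above and 1 below in ESC (against 12.8% and 9.48% of all genes), and 1 of 8 above and 1 below in iPSM (against 8.16% and 7.32%). The gene above in iPSM was Rasd2, a small GTPase, with 4.93, 3.39, 3.60 and 3.46 CPM in clones 12, 20, 7 and 19, against 2.41 and 2.68 CPM, and the gene below was Lfng. The iPSM median log2 difference of this list was -0.42 against both control libraries and 0.16 against the dox-treated one alone, so the sign of the median rested on the untreated control library, while the summed level was lower in every clone against each control library.

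The segmentation clock genes of iPSM lay on the low side of the control without dox. Of 29 Notch and oscillator genes, 12 lay below both control libraries in every clone and 2 above (Jag2 and Rfng), where 7.32% and 8.16% of all genes did, and their median log2 difference was -0.30, or -0.31 against the dox-treated control alone. None passed the edgeR test, 10 were lower at an unadjusted p under 0.05, and DESeq2 called 0. With no filter on low counts edgeR called 8 of the 29 lower, namely Hes7, Lfng, Nrarp, Dll1, Dll3, Notch1, Notch3 and Dusp6. Clone 12 was the lowest clone in 12 of those 12 genes, and without it the median was -0.20, against -0.44 without clone 20.

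Hes7, the core repressor, had 7.7, 21.5, 16.7 and 19.5 CPM in clones 12, 20, 7 and 19, against 25 CPM in the untreated and 31 CPM in the dox-treated control (log2 difference -0.79 ± 0.342 SE, edgeR adjusted p = 0.652, and -0.93 against the dox-treated control alone). Lfng, the glycosyltransferase that modulates Notch receptors, had 7.91, 20.7, 20.7 and 22.8 CPM, against 31.2 and 38.0 CPM. Nrarp, a Notch feedback inhibitor, had 8.30, 32.4, 23.7 and 20.6 CPM, against 42.4 and 48.8 CPM. In each of the 3 genes clone 12 stood lowest by more than 2-fold and the other clones lay between it and the control.

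The ligands and receptor followed the same order. Dll1 had 51.3, 159, 153 and 141 CPM in clones 12, 20, 7 and 19, against 237 and 259 CPM in the control (log2 difference -0.99 ± 0.374 SE, edgeR unadjusted p = 0.0285, and -1.04 against the dox-treated control alone). Dll3 had 18.4, 36.1, 34.9 and 32.6 CPM, against 49.5 and 47.5 CPM, and Notch1 had 70.0, 108, 130 and 113 CPM, against 175 and 149 CPM. Dusp6, a cyclic target of Fgf signalling, had 106, 186, 157 and 187 CPM, against 204 and 258 CPM. Jag1, Hey2, Heyl, Spry2 and Snai1 also lay below in every clone, and Hes1 overlapped. With dox, Dll1 had 53.2, 140, 96.0 and 131 CPM in the same 4 clones, so clone 12 was lowest in both states. In ESC, where this network does not run, 2 of 27 lay above the control in every clone and 3 below (against 12.8% and 9.48% of all genes), with a median of -0.09.

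Of the genes of the tissue in which the segmentation clock runs, more lay below the control than above it in the same clones, and none passed the edgeR test. Of 17 presomitic mesoderm genes 0 lay above and 6 below the control in every iPSM clone, where 8.16% and 7.32% of all genes did. The median log2 difference was -0.23 (-0.34 against the dox-treated control alone), and clone 12 was lowest in 6 of the 6. Tbx6, which specifies paraxial mesoderm, had 21.7, 55, 61.5 and 54.9 CPM in clones 12, 20, 7 and 19, against 72.9 and 76.4 CPM in the control. Rspo3, a Wnt agonist, had 127, 220, 288 and 333 CPM, against 413 and 405 CPM. Cyp26a1, which degrades retinoic acid, had 3.47, 12.5, 5.87 and 6.19 CPM, against 21.2 and 27.6 CPM (log2 difference -1.82 ± 0.407 SE, edgeR adjusted p = 0.426; DESeq2 adjusted p = 0.00449), and the difference was -1.99 against the dox-treated control alone. T, the Brachyury gene of the primitive streak and tail bud, lay on the other side, with 511, 558, 576 and 624 CPM, against 382 and 517 CPM, and overlapped in clone 12 alone.

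Of the lists for later or other lineages, each had more members below the control in every clone than above, with no edgeR call, where 7.32% of all genes lay below and 8.16% above. Of 17 somite genes listed, 12 passed the filter on low counts, of which 6 lay below and 1 (Tcf15) above. Their median log2 difference was -1.17, but -0.34 against the dox-treated control alone, with summed levels of 30.7, 94.5, 138 and 110 CPM in clones 12, 20, 7 and 19, against 230 and 203 CPM in the control. Foxc2 had 0.0204, 0.263, 0.0511 and 0.190 CPM, which are 1, 11, 2 and 9 counts, against 1.34 and 1.15 CPM (55 and 46 counts). Such a gene passes the filter on low counts only through the control libraries, so its direction and its share in the count and median of the list are partly set by the filter. Aldh1a2, the retinoic acid synthase of somites, had 21.7, 79.7, 124 and 97.4 CPM, against 198 and 176 CPM. Of 10 endoderm genes tested 5 lay below (Foxa1, Gata6, Cxcr4, Cubn and Lama1) and 0 above, with a median of -1.21 (-0.98 against the dox-treated control alone). Of 10 neural genes tested 3 lay below and 0 above (median -0.44, and -0.36 alone), and of 10 lateral, intermediate and cardiac mesoderm genes 4 lay below and 1 above (median -0.97, and -0.47 alone). The neural list summed to 155, 203, 193 and 180 CPM in clones 12, 20, 7 and 19, against 176 and 206 CPM. The lateral list summed to 16.2, 13.3, 18.3 and 14.1 CPM, against 19.8 and 15.1 CPM, so both sums overlapped the control. The endoderm sums were 26.2, 52.4, 59.9 and 58.0 CPM, against 116 and 104 CPM. These lists held 14 endoderm, 12 neural and 15 lateral genes, and the limit set by the filter can apply to them too. In bulk samples fewer cells of a type and less RNA per cell cannot be told apart.

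Part of the pluripotency genes lay above the control in the same colonies, where 8.16% of all genes lay above in every clone and 7.32% below, and none passed the edgeR test. Of 20 naive pluripotency genes 5 lay above the control in every iPSM clone and 1 below, with a median log2 difference of 0.26 (0.24 against the dox-treated control alone), and of 14 primed pluripotency genes 4 lay above and 0 below, with a median of 0.43 (0.32 alone). Pou5f1 (Oct4) had 180, 203, 191 and 179 CPM in clones 12, 20, 7 and 19, against 99.0 CPM in the untreated and 140 CPM in the dox-treated control (0.64 ± 0.158 SE, edgeR adjusted p = 0.453; DESeq2 adjusted p = 0.0388), and the difference was 0.43 against the dox-treated control alone. Nanog had 54.7, 37.0, 66.7 and 50.8 CPM, against 26.6 and 35.0 CPM. Otx2, a primed-state factor, had 11.1, 9.87, 13.7 and 9.97 CPM, against 4.45 and 6.01 CPM (1.08 ± 0.218 SE; DESeq2 adjusted p = 0.00176), a difference of 0.89 against the dox-treated control alone. Dnmt3b, a de novo DNA methyltransferase, had 225, 209, 256 and 216 CPM, against 137 and 143 CPM (0.68 ± 0.132 SE, edgeR adjusted p = 0.319; DESeq2 adjusted p = 0.00113), a difference of 0.66 against the dox-treated control alone. Utf1, Tfcp2l1, Dppa5a, Nodal and Dnmt3a were the others above, and Gbx2 the naive gene below, with 19.9, 33.1, 27.3 and 30.2 CPM, against 43.1 and 46.9 CPM.

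These groups differed side by side in the same 4 clones, and the part of 1 in another was not tested. Clone 12 was lowest in the Notch and presomitic genes that lay below the control and in 4 of the 6 such somite genes. It was not the clone with the most Arntl, which was clone 20. Of the pluripotency genes above the control in every clone, it was highest in 2 of 5 naive and 1 of 4 primed genes. Another clone exceeded it for each of Pou5f1, Nanog, Otx2 and Dnmt3b.

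**Figure D3:**
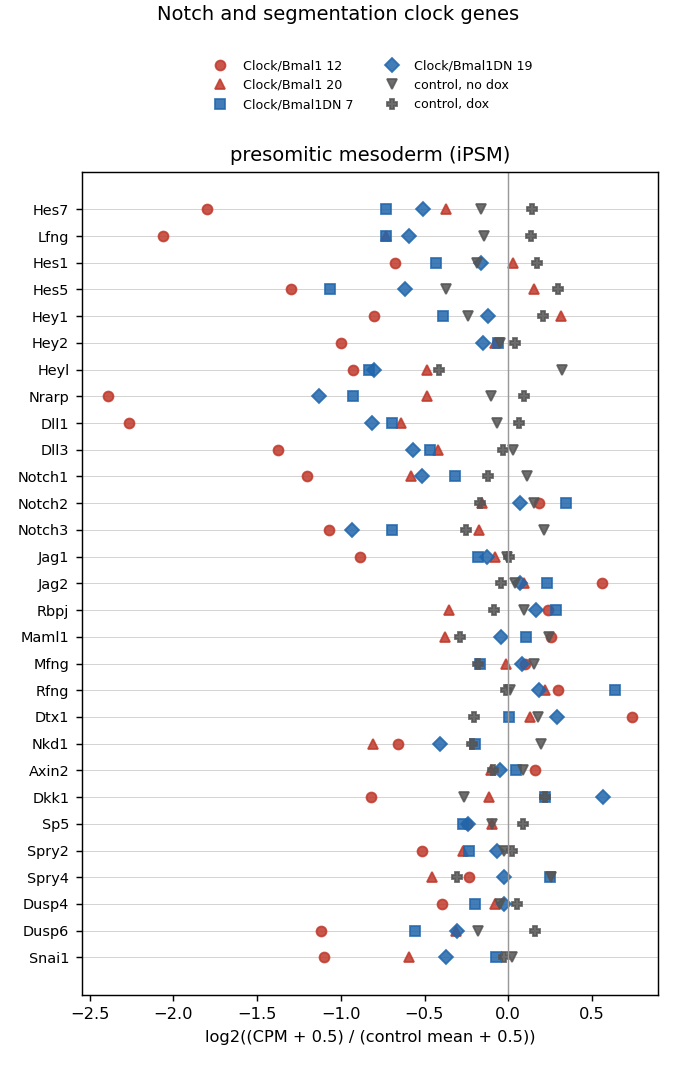
Log2 ratio to the control mean (CPM + 0.5 in both) for the 29 Notch and segmentation clock genes in iPSM, with 1 point per untreated clone and control library (grey). Clone 12 is lowest for Hes7, Lfng, Nrarp and Dll1, and the other 3 clones lie between it and the 2 control libraries.

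The plot of the 29 Notch genes shows clone 12 far to the left for Hes7, Lfng, Nrarp and the delta ligands Dll1 and Dll3, and to the right for the ligand Jag2. Receptor and cofactor genes such as Notch2, Rbpj, Maml1 and Mfng have clones and control libraries interleaved.

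A further group lower in iPSM clones was that of the 2-cell-like state, a rare state of pluripotent cultures marked by Zscan4 genes. Of 9 genes listed 6 passed the filter on low counts, and these 6 lay below in every clone, where 7.32% of all genes did. Their median log2 difference was -2.24 (-2.48 against the dox-treated control alone). The list summed to 3.81, 7.81, 5.16 and 3.79 CPM in clones 12, 20, 7 and 19, against 19.2 and 27.6 CPM in the control. Members with few reads in the clones can pass the filter through the control libraries alone, so this count and median may be partly set by the filter. Zscan4f had 0.856, 1.24, 0.843 and 0.759 CPM, against 3.79 and 6.11 CPM. Its edgeR unadjusted p of 3.26e-05 was the smallest among iPSM genes without overlap, with a mean of at least 1 CPM and no provisional name. Its log2 difference was -2.43 ± 0.299 SE (edgeR adjusted p = 0.276, DESeq2 adjusted p = 5.1e-08), and -2.73 against the dox-treated control alone. Zscan4 genes are near-identical copies in a cluster on chromosome 7, so the counts of single members are uncertain and the members are not independent. DESeq2 called 3 of the 6.

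In ESC more naive pluripotency genes lay below the control than above it, and none passed the edgeR test, where 9.48% of all genes lay below in every clone and 12.8% above. Of the 20 naive genes 1 lay above the control in every clone (Tbx3, with 6.56, 5.76, 6.49 and 6.05 CPM in clones 1, 7, 5 and 6, against 3.78 and 4.12 CPM) and 5 below, with a median log2 difference of -0.22, and of the 14 primed genes 2 lay above and 1 below. Pou5f1 had 780, 715, 802 and 728 CPM, against 840 and 926 CPM, a log2 difference of -0.24 (edgeR unadjusted p = 0.0345). Nr0b1 had 106, 64.2, 132 and 97.3 CPM, against 158 and 144 CPM. Zfp42, Dppa3 and Gbx2 were the others below. Otx2 had 26.8, 38.3, 25.6 and 30.3 CPM, against 19.5 and 22.4 CPM. Fgf17 had 17.1, 17.9, 19.0 and 13.1 CPM, against 31.8 and 28.6 CPM (-0.86 ± 0.172 SE, edgeR adjusted p = 0.447; DESeq2 adjusted p = 0.00347).

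Fibroblast genes, of the kind that a layer of feeder cells carries, separated the ESC groups more than any pluripotency list. Of 18 such genes 15 lay above the control in every ESC clone and 0 below (against 12.8% and 9.48% of all genes), with a median log2 difference of 2.05. The labels say that the parent ESC of the iPSM colonies were kept without feeder cells and refer to an earlier study for KY1.1 ESC. The summed level of the list was 906, 1830, 935 and 3420 CPM in clones 1, 7, 5 and 6, against 778 CPM in the untreated and 639 CPM in the dox-treated control. Clone 6 was highest in 15 of the 15, and without it the median was 1.38. Col1a1, a fibrillar collagen, had 14.4, 24.7, 11.5 and 56.3 CPM, against 6.20 and 5.27 CPM, and Acta2, smooth muscle actin, had 104, 310, 146 and 610 CPM, against 67.6 and 72.2 CPM. S100a4, a fibroblast marker, had 31.1, 99.5, 29.2 and 248 CPM, against 14.8 and 19.5 CPM, and Xist, the transcript of the inactive X, had 4.38, 10.6, 5.39 and 22.7 CPM, against 3.30 and 1.65 CPM. None of the 18 was at 0 in all libraries, and Lum had no reads in the untreated control. With dox the sums were 1160, 1790, 949 and 770 CPM in clones 1, 7, 5 and 6, so clone 6 was the highest without dox and the lowest with it. In iPSM 2 of 15 lay above and 0 below (against 8.16% and 7.32% of all genes), with a median of -0.05 (0.05 against the dox-treated control alone). Clones 6 and 7, with the most fibroblast reads, also had the most Nr1d2, Tsc22d3 and Hes1, and the part of fibroblast RNA in those results was not tested. Hes1, a Notch target, had 9.70, 17.0, 9.10 and 22.4 CPM in clones 1, 7, 5 and 6, against 7.65 and 8.54 CPM in the control.

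**Figure D4:**
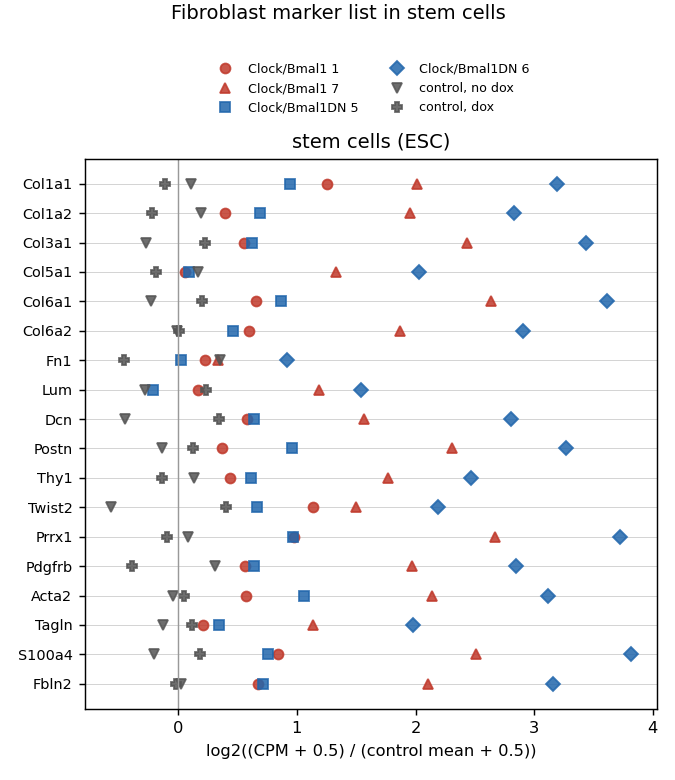
Log2 ratio to the control mean (CPM + 0.5 in both) for the 18 fibroblast genes in ESC, with 1 point per untreated clone and control library (grey). Clone 6 is the highest for the 15 genes that lie above the control in every clone, and clone 7 is mostly the next. Their summed levels over the list are 3420 and 1830 CPM, against 639 and 778 CPM in the control.

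The plot of fibroblast genes by ESC library shows a similar order of libraries for most of the genes. Clones 1 and 5 lie nearest to the control, with sums of 906 and 935 CPM.

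Of 11 mitochondrial transcripts tested in ESC 4 lay above the control in every clone and 0 below, where 12.8% and 9.48% of all genes did. Their median log2 difference was 0.39, but -0.01 without the dox-treated control library and 0.65 without the untreated one, so it rested on the dox-treated library. The mitochondrial 16S rRNA gene mt-Rnr2 had 109, 160, 102 and 94.3 CPM in clones 1, 7, 5 and 6, against 30.1 and 44.0 CPM (1.63 ± 0.25 SE, edgeR adjusted p = 0.378; DESeq2 adjusted p = 7.31e-08). The libraries were made after depletion of ribosomal RNA, so the level of this gene also carries what depletion left.

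Among ESC genes higher in the clones, those with the smallest p-values, named here after their values were seen, lay mostly in 1 stretch of chromosome 4 (mm10 chr4:145510759-147702553). It held 8 of the 12 with the smallest p, provisional gene names left out. The stretch was bounded by these 8 zinc finger genes, which had been picked because every clone lay above the control. Of 15 zinc finger genes tested there, these 8 included, 13 lay above the control in every clone (against 12.8% of all genes). Their median log2 difference was 0.71, with a range of -0.27 to 1.40. That count and median are partly set by the choice of the 8 and are no independent evidence. Zfp534 had 79.3, 110, 90.1 and 70.8 CPM in clones 1, 7, 5 and 6, against 29.3 and 36.5 CPM, and Zfp981 had 189, 170, 156 and 154 CPM, against 85.3 and 94.5 CPM (edgeR adjusted p = 0.347 for both; DESeq2 adjusted p = 5.33e-08 and 1.2e-06). With dox Zfp534 was at 31.2, 65.8, 68.3 and 81.4 CPM. These genes are near-identical in sequence, so the division of reads among them is uncertain. In iPSM the gene first in the same order was Usp26 on the X chromosome, with 35.7, 25.7, 18.5 and 36.6 CPM in clones 12, 20, 7 and 19, against 6.23 and 8.19 CPM, and Arntl was next.

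By construct, edgeR called 2 genes, both lower in ESC Clock/Bmal1 clones (0.0098% of those tested), and 0 in the other 3 construct comparisons, where 1662 (ESC Clock/Bmal1DN), 1364 (iPSM Clock/Bmal1) and 965 genes (iPSM Clock/Bmal1DN) had an unadjusted p under 0.05. Both are transcripts of the imprinted Dlk1-Meg3 region on chromosome 12, which is expressed from the maternal copy for its noncoding RNAs and is known to be silenced in some cultured ESC lines. Mirg (mm10 chr12:109729764-109749458, plus strand) had 3.70 and 6.12 CPM in clones 1 and 7 and 96.9 and 134 CPM in clones 5 and 6, against 59.2 and 70.9 CPM in the control. It fell by 3.74 ± 0.275 on the log2 scale in Clock/Bmal1 clones (SE; edgeR adjusted p = 0.00668, with a range over the settings of 1.61e-70 to 0.65), and differed by 0.80 in Clock/Bmal1DN clones (edgeR adjusted p = 0.569). B830012L14Rik (mm10 chr12:109678088-109714212, plus strand) had 2.25 and 3.11 CPM in clones 1 and 7 and 43.8 and 62.8 CPM in clones 5 and 6, against 27.2 and 24.7 CPM, and fell by 3.28 ± 0.246 (SE; edgeR adjusted p = 0.00668). Leaving out either control library ended both calls.

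The same split held along the region and with dox. Rian had 20.9 and 48.1 CPM in clones 1 and 7 and 376 and 542 CPM in clones 5 and 6, against 208 and 223 CPM, and Meg3 had 1.41 and 2.68 CPM and 22.0 and 24.7 CPM, against 18.0 and 12.9 CPM. With dox Mirg had 3.04, 5.54, 105 and 122 CPM in clones 1, 7, 5 and 6. With 2 clones of each construct, the construct and the clones cannot be told apart.

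Imprinted genes in iPSM also went by clone. Of 26 tested, 3 lay above and 7 below the control in every clone, where 8.16% and 7.32% of all genes did. The median log2 difference was -0.32 (-0.24 against the dox-treated control alone). H19 had 0.897, 55.6, 1.48 and 1.26 CPM in clones 12, 20, 7 and 19, against 52.3 and 77.2 CPM in the control, and Nnat had 0.408, 41.6, 0.638 and 0.379 CPM, against 15.5 and 22.7 CPM. Clone 20 was thus within the control range for H19 and above it for Nnat, while the other 3 lay far below it for both. With dox H19 had 0.987, 40.8, 1.1 and 1.33 CPM in the same clones. Plagl1 had 0.224, 3.39, 0.230 and 0.211 CPM, against 6.86 and 4.23 CPM, and Igf2, a growth factor, had 0.754, 1.00, 0.868 and 1.01 CPM, against 3.21 and 2.43 CPM (-1.65 ± 0.274 SE, edgeR adjusted p = 0.303; DESeq2 adjusted p = 0.000664), a difference of -1.42 against the dox-treated control alone.

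Genes of the Y chromosome marked single clones. Ddx3y, an RNA helicase, had 0, 165, 123 and 38.1 CPM in iPSM clones 12, 20, 7 and 19, against 156 and 189 CPM in the control, and Eif2s3y had 0, 161, 143 and 130 CPM, against 154 and 188 CPM. Kdm5d had 0, 34.0, 5.00 and 0.632 CPM, against 21.9 and 24.7 CPM. Uty had 0.0408, 144, 209 and 35.0 CPM, against 217 and 188 CPM. Clone 12, lowest in the segmentation clock genes, was the clone with no counts of Ddx3y, Eif2s3y and Kdm5d and the fewest of Uty, and its dox-treated library had none of 3 of these 4 genes as well. In ESC Ddx3y had 101, 13.7, 7.18 and 137 CPM in clones 1, 7, 5 and 6, against 40.3 and 52.7 CPM, while Uty had 86.4, 89.9, 63.6 and 76.6 CPM, against 50.3 and 58.4 CPM. Clone 7 in ESC, with the most Clock, further had a median log2 ratio to the control over 599 genes of chromosome 8 that lay 0.36 above that of all genes, and 0.33 with dox, where the other ESC values by library and chromosome ran between -0.13 and 0.16. The part of these clonal states in the Clock, Arntl and target results was not tested.

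**Figure D5:**
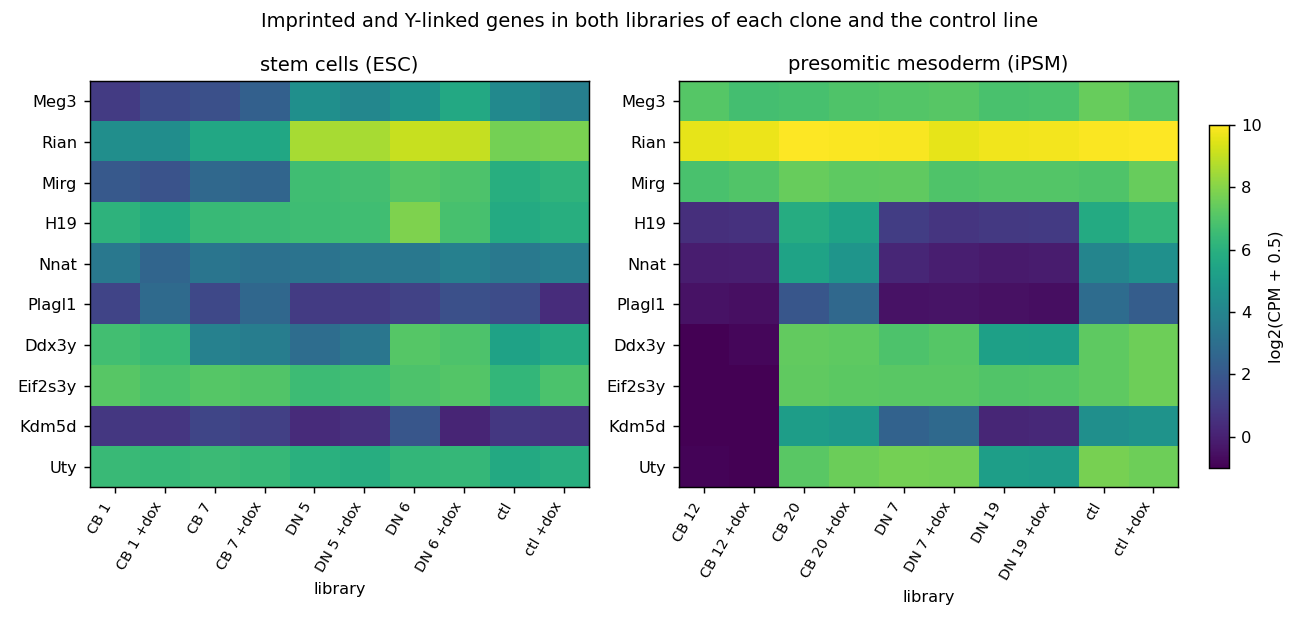
Colour gives log2(CPM + 0.5) of imprinted and Y-linked genes in each library, with clones without and with dox side by side and the control line at the right, for ESC and iPSM. ESC clones 1 and 7 lie far below the control for Mirg, iPSM clones 12, 7 and 19 for H19, and iPSM clone 12 for the Y-linked genes.

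The plot of clone markers shows that the clones of 1 construct are not alike. In iPSM the Clock/Bmal1 clones 12 and 20 lie far apart for H19, Nnat and the Y-linked genes.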

How the data were processed

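Total RNA of mouse ESC and iPSM colonies was sequenced as paired-end reads after removal of ribosomal RNA, per the labels' protocols. Per the submitters' processing notes, bcl2fastq, STAR 2.7.2a and HOMER were used with mm10, with no roles given. The deposited expected counts per gene, made by the authors, are estimated counts in steps of 0.5 (16.89% of ESC and 19.3% of iPSM values end in a fraction) and were rounded before fitting. The authors' deposited RPKM values, computed per the file headers' totals, matched the counts within 1% in 100% of cases and were used for no test. Counts of the 4 untreated clones and 2 control libraries were fitted per cell type with edgeR 4.0.16 (quasi-likelihood, TMM, filterByExpr) in R 4.3.3. The same fit was run with 3 groups for the constructs and with all 12 libraries for the difference between cell types. The tests were checked on simulated data. Alternatives were RLE size factors, no filter, DESeq2 1.42.0, all 10 libraries of a cell type, and each library left out. The labels name clones but no separate cultures of a clone. The spread behind the p-values holds differences between clones and between the control library with and without dox. In the fit of all clones as 1 arm it also holds differences between the constructs. No pair of libraries agreed within sampling noise.

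The members and the 21 gene lists (323 genes) were chosen with earlier results of these data known, and 1 gene is not reported here. The text names Clock, Arntl and core clock genes, genes past the threshold, and the members of each list with the smallest p, besides genes chosen after their values were seen. Whether counting used strand is not given in the sources used here, and reads of near-identical copies are uncertain.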

Additional observations from a re-analysis of the deposited data

Results flagged for a closer look

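In 7 of the named genes 1 untreated clone stood far from the other 3 of its cell type, by a gap above the 95% critical value of Dixon's test for 4 values. These were 3 of 54 genes in ESC and 4 of 53 in iPSM, and chance gives such a gap in about 1 in 20 groups. In ESC, Clock was at 59.2 CPM in clone 7, Npas2 at 1.89 CPM in clone 5 and H19 at 234 CPM in clone 6. The other ESC clones had 69.1 to 94.8 CPM of H19, against 51.8 and 59.0 CPM in the control. In iPSM, Lfng was at 7.91 CPM and Rasd2 at 4.93 CPM in clone 12, Cubn, an endocytic receptor gene of endoderm, at 0.334 CPM in clone 20, and Kdr, the VEGF receptor gene, at 1.73 CPM in clone 19.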

How the results depend on the processing

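Counts of called genes moved with the filter on low counts, with the tool and with single libraries left out, and the cause was not tested. With no filter edgeR called 308 genes higher and 37 lower in ESC clones, 524 and 95 in ESC Clock/Bmal1 clones, 891 and 70 in ESC Clock/Bmal1DN clones, 180 and 1582 in iPSM clones, 85 and 886 in iPSM Clock/Bmal1 clones, and 127 and 665 in iPSM Clock/Bmal1DN clones. DESeq2 called 133 higher and 22 lower, 30 and 29, 60 and 6, 50 and 143, 30 and 144, and 23 and 40 in the same 6 comparisons. Leaving out each library in turn gave 0 to 0 genes higher and 0 to 2 lower in ESC clones (2 without clone 6), 0 to 7 higher and 0 to 14 lower in ESC Clock/Bmal1 clones (7 and 14 without clone 1, 0 lower without either control library, 4 lower without clone 7), and 0 to 508 higher and 0 to 6 lower in ESC Clock/Bmal1DN clones (508 and 6 without clone 5). In iPSM it gave 0 to 45 higher and 0 to 1912 lower in all clones (45 and 1912 without the dox-treated control library, 10 and 34 without clone 20), 0 to 10 higher and 0 to 682 lower in Clock/Bmal1 clones (10 and 682 without the dox-treated control library, 4 lower without clone 20), and 0 to 1 higher and 0 to 359 lower in Clock/Bmal1DN clones (1 and 359 without the dox-treated control library). An arm left with 1 library is assumed to vary like the other.

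Arntl in iPSM passed the threshold under some settings at about the same size. Its log2 difference was 1.58 with no filter, 1.55 with DESeq2 and 1.41 to 1.69 with a library left out in all clones, 1.72, 1.70 and 1.47 to 1.92 in Clock/Bmal1 clones, and 1.41 with no filter and 1.39 with DESeq2 in Clock/Bmal1DN clones. Clock in ESC Clock/Bmal1 clones passed with no filter, at 0.79. Clock in iPSM Clock/Bmal1DN clones was near 0 and changed sign, at 0.00 with RLE size factors, 0.02 with no filter, 0.00 with DESeq2 and -0.02 to 0.02 with a library left out. Of 1116 values for 86 named genes under the alternatives, 1025 kept their direction and side of the threshold, 64 passed it newly and 27 changed sign. Among genes named one by one, the log2 differences that changed sign had ranges with a library left out of -0.70 to 0.15 for Per2, -0.12 to 0.17 for Per3, -0.16 to 0.18 for Cry2, -1.05 to 1.86 for Hlf, -0.26 to 0.21 for Bhlhe40 and -0.27 to 0.78 for Npas2 in ESC. In iPSM they were -0.14 to 0.09 for Per3 (-0.00 with all 10 libraries), -0.29 to 0.00 for Cry1, -0.14 to 0.19 for Cry2 (-0.00 with all 10 libraries), -0.08 to 0.33 for Dbp, -0.79 to 0.87 for Hlf, -1.90 to 1.14 for Npas2 and -0.00 to 0.32 for Eif2s3x.

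No paired analysis was possible because the numbers in the labels name clones, and the control line has none of them. The control has 1 library per state, so its spread over 2 libraries mixes dox with library differences. At 38184055 to 57299360 counts per library, 3 counts correspond to less than 0.1 CPM, so depth limits only genes near that level.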

Other observations

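Signalling and stress genes gave no edgeR call in either cell type, nor in the fit of the difference between the cell types. In ESC 12.8% of all genes lay above the control in every clone and 9.48% below. Of 15 immediate early genes tested in ESC, 4 lay above the control in every clone and 0 below, among them Egr1, an early growth response factor, with 4.02, 2.52, 1.91 and 4.01 CPM in clones 1, 7, 5 and 6, against 1.45 and 1.37 CPM in the control (log2 difference 1.12 ± 0.352 SE, edgeR adjusted p = 0.447). Ier3 had 14.2, 19.5, 15.3 and 29.9 CPM, against 11.4 and 12.7 CPM. Of 14 p53 targets 2 lay above in ESC, with Ccng1, a cyclin G gene, at 396, 598, 466 and 853 CPM, against 346 and 395 CPM. The order of clones for Ier3 and Ccng1 was that of the fibroblast genes for clones 6 and 7, and its part in these values was not tested. Of 16 integrated stress response genes 0 lay above and 2 below in ESC.

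In iPSM 0 of 17 immediate early genes lay above and 1 below (median log2 difference 0.07, and -0.09 against the dox-treated control alone), and none of 16 integrated stress response or 14 p53 genes did either, where 8.16% of all genes lay above and 7.32% below. The 1 below was Nr4a2, an orphan nuclear receptor gene, with 8.93, 9.37, 11.4 and 10.6 CPM in clones 12, 20, 7 and 19, against 14 and 12.2 CPM. Tal1, a blood and endothelial factor, had 0.713, 0.741, 0.536 and 0.421 CPM, against 1.87 and 1.90 CPM (log2 difference -1.66 ± 0.326 SE, edgeR adjusted p = 0.321), while Pecam1, an endothelial adhesion gene that ESC also express, had 10.4, 6.93, 12.0 and 7.00 CPM, against 4.96 and 4.08 CPM. Of 10 mitochondrial genes tested in iPSM 0 lay above and 1 below (median -0.26, and -0.07 against the dox-treated control alone), mt-Nd6, with 11.3, 12.6, 10.9 and 14.1 CPM, against 15.3 and 18.9 CPM.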
